A study of Arabidopsis thaliana with 8 samples.

Results

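Gene expression was compared between young Arabidopsis thaliana plants that overexpress PK12 and non-transformed plants, using the 4 arrays hybridised with RNA of 10-day plants, out of 8 arrays in the series. Arrays 1 to 4 below are those with the title codes 56, 57, 60 and 61. Both kinds of plant were grown for 10 days in long days, and total RNA of both was hybridised to the same array, which carried expressed sequence tags (ESTs, cloned pieces of transcripts). Non-transformed plants are given as channel 1 and PK12 plants as channel 2. The labels name no ecotype, promoter or transgenic line for these plants. The other 4 arrays, from plants of 21 days, were of another array type.

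Of 11965 ESTs, 11956 had a value on all 4 arrays. The platform annotation tied 5204 of these to a single gene, and averaging the ESTs of each gene gave 3517 genes, 2487 of which rested on 1 EST. The deposited value is a ratio of the channels, but the sources used here do not say which channel was divided by which. Genes with a mean log2 ratio above 0 are therefore said to lie on the positive side, and those below 0 on the negative side. The positive side means more transcript in PK12 plants if channel 2 was the numerator, and less if channel 1 was. The side taken by one gene relative to another does not depend on this.

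PK12 is a protein kinase of the LAMMER family, named after an amino acid motif in its catalytic domain. LAMMER kinases phosphorylate serine- and arginine-rich splicing factors, which choose splice sites in messenger RNA precursors. In a seedling of this age, seed reserves have largely been used up and growth depends on photosynthesis in the cotyledons and first leaves, whose light-harvesting and carbon-fixing proteins are encoded largely in the nucleus. An EST array reads the summed abundance of a gene's transcripts and cannot tell splice forms apart.

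The question was which functions the changed genes serve, across the whole set and not only among the most extreme. A gene was called when the mean of its 4 log2 ratios differed from 0 at a Benjamini-Hochberg adjusted p under 0.05 in limma. The labels name no array on which the 2 kinds of plant swapped channels. A steady effect of the channel on a gene therefore cannot be told apart from a difference between the plants. This held for 459 of 3517 genes, or 13.1%, of which 283 (8.05%) were positive and 176 (5.00%) negative. All 459 called genes had the same sign on all 4 arrays, as did 1400 of all genes. The smallest called mean was 0.58 in absolute log2, a 1.5-fold departure from equal channels, and the median called gene departed 2.03-fold. At least 2-fold departures were seen for 242 called genes, 159 positive and 83 negative. All 17 called genes that departed 4-fold or more were positive.

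**Figure D1:**
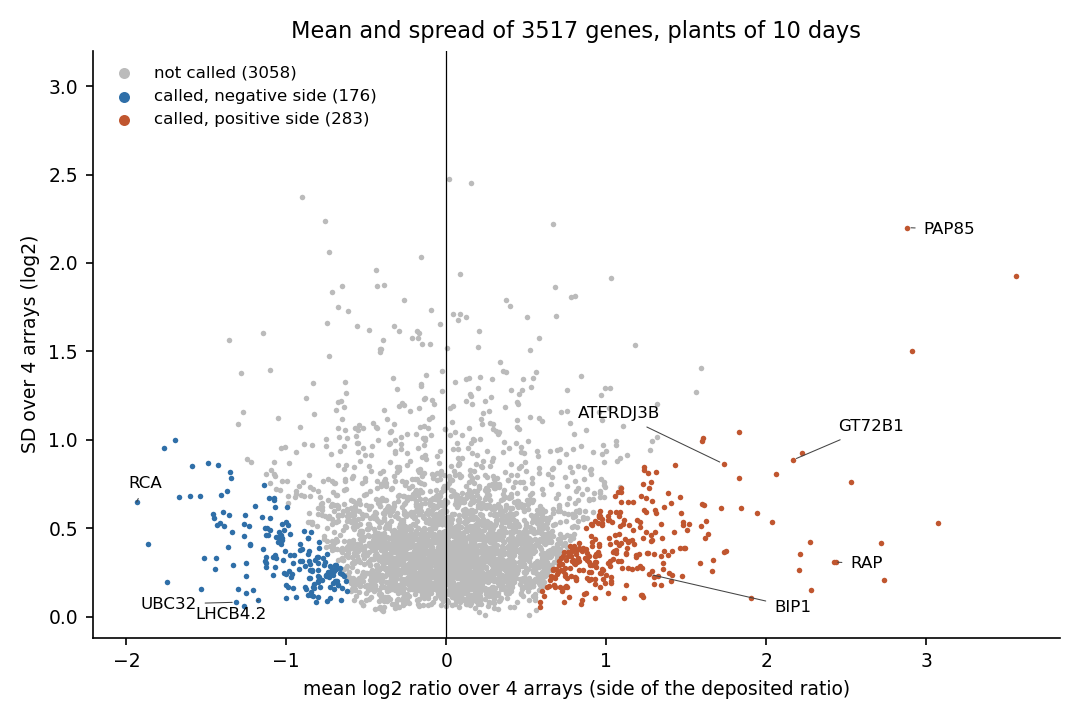
Mean log2 ratio (x axis) and standard deviation over the 4 arrays (y axis, log2) of the 3517 genes, each a point, with 283 called on the positive side and 176 on the negative side coloured. Called genes start at an absolute mean of 0.58, and the positive side reaches further from 0 than the negative side.

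The labels state that the 4 arrays include 2 independent biological experiments, without saying which arrays share one. The p-values therefore measure a spread between arrays that may be partly technical. Across genes, which are not independent replicates, arrays 1 and 3 correlated at Pearson's r = 0.61, as did arrays 2 and 4, while the other pairs lay between 0.23 and 0.50. When arrays 1 and 3 were treated as one experiment and arrays 2 and 4 as the other, 263 of the 459 genes remained called. Leaving out array 1, 2, 3 or 4 lowered the number of called genes to 99, 168, 195 and 188, and 77 genes (59 positive, 18 negative) were called in all 4 of these fits. The ratios carry no intensities, so the number of arrays limits the precision.

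Functions could be assigned where the gene table gives a symbol or a worded name. A symbol exists for 542 of the measured genes, and 46 of these had positive and 37 negative calls, 15.3% in all against 13.1% of all genes. Altogether 497 genes were placed in 38 functional classes, some in more than 1 class, and 45 of them were called positive and 35 negative. Counts by function below cover these 497 genes only, so genes of the same function without a symbol or worded name can be missing. Of the 2975 genes known by locus code alone, 237 were positive and 139 negative, so most changed genes have no function that can be named here. Of 6752 ESTs that could not be matched to a single gene, 591 were positive and 630 negative in a fit over ESTs, or 18.1%, against 17.0% of all 11956 ESTs.

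**Figure D2:**
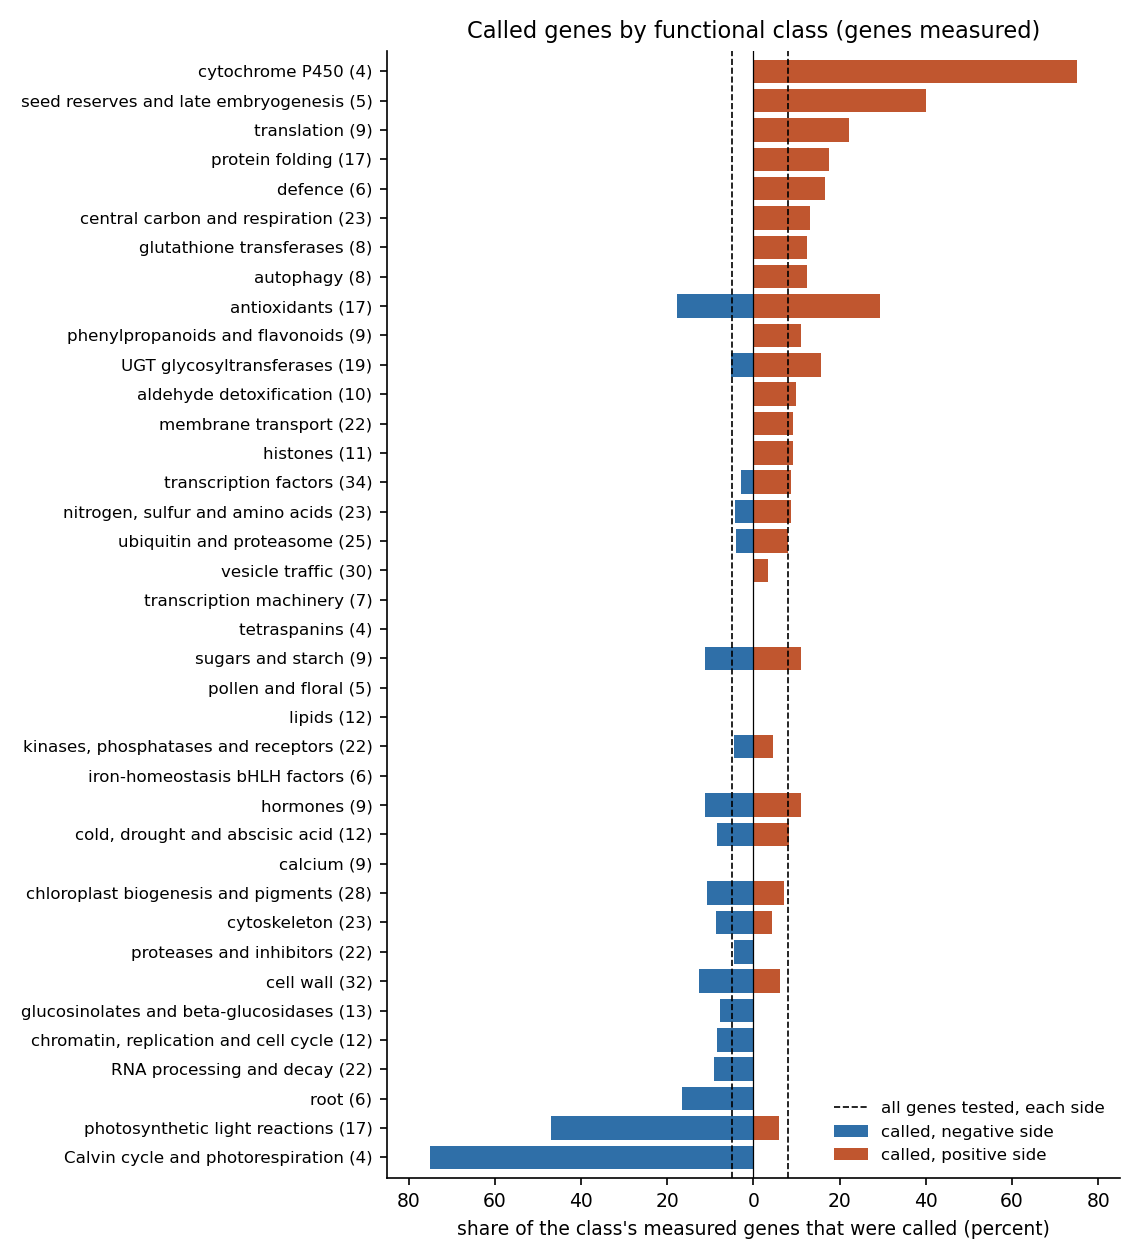
Share of each functional class's measured genes called on the negative side (left, percent) and on the positive side (right, percent), with the number of measured genes in parentheses and dashed lines at the shares over all 3517 genes, 5.00% and 8.05%. Light reactions and the Calvin cycle reach furthest to the left, and antioxidant enzymes extend past the dashed lines on both sides.

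The photosynthesis genes lay mostly on the negative side. Of 21 measured genes for the light reactions, the Calvin cycle and photorespiration, 11 were called negative and 1 positive, and 20 had means below 0. Their median log2 ratio was -0.70, against 0.04 over all genes. RNA came from plants and not from sorted cells, so a difference in the number of green cells between PK12 and non-transformed plants cannot be told apart from a difference in RNA per cell, whichever plants held more.

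The light reactions capture light in antenna proteins around photosystems I and II and turn it into ATP and reducing power. Of 17 measured genes, 8 were called negative and 1 positive. The antenna protein LHCB4.2 (CP29, which links the outer antenna to the photosystem II core) had log2 ratios of -1.26, -1.05, -1.23 and -1.17 on arrays 1 to 4, a mean of -1.18 ± 0.09 (SD, n = 4 arrays, limma adjusted p = 0.00985). Its 4 arrays lay closer together than those of any other called gene of this group. PSAN, a lumenal subunit of photosystem I, read -0.81, -0.95, -1.26 and -1.51, a mean of -1.13 ± 0.32. The major antenna gene LHB1B2 was at -1.07 ± 0.35, lowest on arrays 2 and 4.

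Negative calls reached beyond the antenna. NdhU, a subunit of the complex that drives cyclic electron flow around photosystem I, was at -1.09 ± 0.34. PSB27, an assembly factor of photosystem II in the thylakoid lumen, read -0.56, -1.66, -0.38 and -1.38 (mean -0.99 ± 0.62), far lower on arrays 2 and 4 than on the other two. TROL, a thylakoid protein that anchors the ferredoxin-NADP reductase, was at -0.85 ± 0.26. ATPC1, the gamma subunit of the chloroplast ATP synthase, was at -0.75 ± 0.35. Thus antenna, photosystem I, assembly of photosystem II, electron transport and ATP synthesis were each represented among the negative calls. The calls of PSB27, TROL and ATPC1 were lost with any array left out.

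The 3 genes for CP29 did not share a side over all 4 arrays. LHCB4.1 read -0.43, -1.09, -0.60 and -1.09, a mean of -0.80 ± 0.34. LHCB4.3 read 0.57, 1.19, 0.91 and 0.49, a mean of 0.79 ± 0.32 (limma adjusted p = 0.0353), and was the only light-reaction gene with a mean above 0. The call of LHCB4.3 was lost with any 1 array left out (limma adjusted p = 0.0696 to 0.108) and with arrays 1 and 3 against 2 and 4 as experiments (0.0699). That of LHCB4.1 was lost in the same fits, while LHCB4.2 was called in each.

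Subunits that missed the threshold include PSAE-1 at -0.59 ± 0.61, NdhS at -0.62 ± 0.60 and the thylakoid-curving protein CURT1C (AT1G52220) at -0.55 ± 0.22. Nearer to 0 were CURT1A (AT4G01150) at -0.30 ± 0.48, PIFI at -0.31 ± 0.30, PSBY at -0.23 ± 0.45, PSBW at -0.09 ± 0.39 and NdhN at -0.06 ± 0.15. Thus PSBW and PSBY, small subunits of photosystem II, gave no call. The antenna genes LHB1B2, LHCB4.1 and LHCB4.2 were called negative and LHCB4.3 positive. A difference between subunit and antenna genes was not tested.

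In the Calvin cycle, 3 of 4 genes were called, all negative. RCA (rubisco activase) read -2.48, -2.49, -1.22 and -1.55, a mean of -1.94 ± 0.65 (3.83-fold, limma adjusted p = 0.0103) and the most negative of all called genes, with arrays 1 and 2 lower than arrays 3 and 4. PRK (phosphoribulokinase, which makes the acceptor of carbon dioxide) read -1.54, -2.09, -0.86 and -1.24, a mean of -1.43 ± 0.52, again with the lowest values on arrays 1 and 2. SBPASE, a phosphatase in the regeneration of that acceptor, was at -0.70 ± 0.26. HPR, the peroxisomal hydroxypyruvate reductase of photorespiration, read -0.50, -0.44, -0.87 and -0.56, a mean of -0.59 ± 0.19 that missed the threshold (limma adjusted p = 0.055).

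With 1 array left out, the 8 negative light-reaction calls became 2, 3, 3 and 1 (without array 1, 2, 3 or 4), and with arrays 1 and 3 against 2 and 4 as experiments 5. LHCB4.2 and RCA were called under each of these 5 fits.

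**Figure D3:**
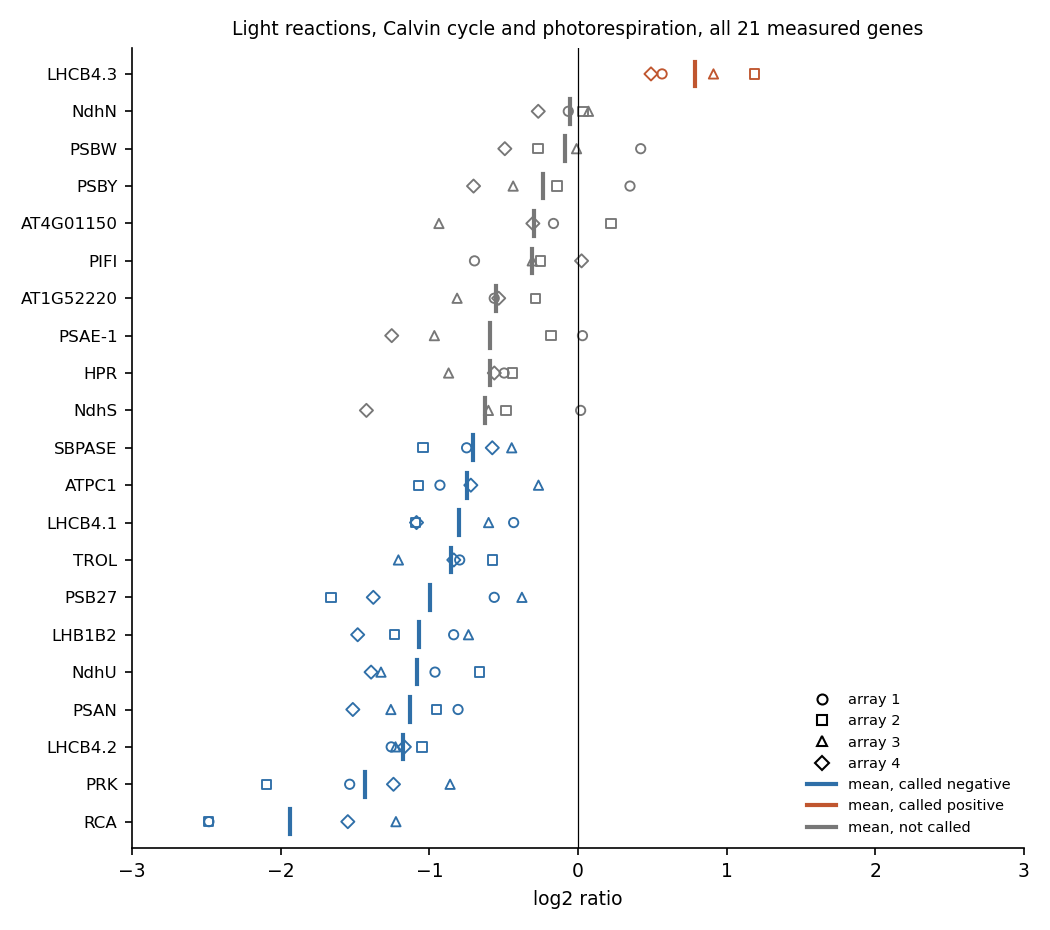
Log2 ratios (x axis) on arrays 1 to 4 (open symbols) and their mean (bar) for all 21 measured genes of the light reactions, Calvin cycle and photorespiration, ordered by mean. All means except that of LHCB4.3 lie below 0, from -0.06 for NdhN to -1.94 for RCA.

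Other chloroplast functions did not share one side. Of 28 genes for chloroplast biogenesis and pigments, 2 were called positive and 3 negative (17.9%), with a median of -0.16. On the negative side stood RH39, an RNA helicase needed for maturation of the chloroplast 23S ribosomal RNA, at -1.69, -1.57, -1.43 and -1.07 on the 4 arrays (mean -1.44 ± 0.27). With it came CHL, the plastid lipocalin, at -1.19 ± 0.63, and geranylgeranyl reductase (AT1G74470), which makes the phytol tail of chlorophyll, at -0.80 ± 0.20 over 5 ESTs. On the positive side stood RAP, which is needed to trim the chloroplast 16S ribosomal RNA, at 2.66, 2.00, 2.65 and 2.37 (mean 2.42 ± 0.31, limma adjusted p = 0.00205), and mTERF9 (AT5G55580), a plastid protein that acts in ribosome assembly, at 1.03 ± 0.22.

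RAP and RH39, which act on ribosomal RNAs of the same organelle, thus had calls on opposite sides. Of other genes of chlorophyll synthesis, PORB, a protochlorophyllide reductase, was at -0.38 ± 0.27 and CHLI2, a subunit of magnesium chelatase, at -0.07 ± 0.32, both without a call.

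Central carbon metabolism gave 3 positive calls and no negative call among 23 genes, 13.0% against the 13.1% of all genes, and all 3 encode subunits of one enzyme. Succinate dehydrogenase links the citric acid cycle to the respiratory chain in mitochondria. The iron-sulphur subunit gene SDH2-2 read 1.30, 0.87, 1.72 and 1.55, a mean of 1.36 ± 0.37 (limma adjusted p = 0.0122). Its paralogue SDH2-1 read 1.1, 0.20, 1.5 and 0.93, a mean of 0.93 ± 0.54, with array 2 nearest 0. The flavoprotein gene SDH1-1 read 1.26, 0.87, 1.02 and 0.60, a mean of 0.94 ± 0.28 over 3 ESTs. With arrays 1 and 3 against 2 and 4 as experiments SDH2-1 was no longer called (limma adjusted p = 0.0744). Of the 3 calls, 1, 2, 1 and 2 remained without array 1, 2, 3 or 4, SDH2-2 among them each time.

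Other enzymes of the class lay between -0.99 and 1.32 without a call. ICL, the isocitrate lyase of the glyoxylate cycle that turns seed oil into sugar, had the highest of these means, 1.32 ± 1.2, from 0.39, 0.19, 2.13 and 2.57 on arrays 1 to 4. Its values were high on arrays 3 and 4 and near 0 on arrays 1 and 2 (limma adjusted p = 0.0827). PPDK was at 0.67 ± 0.31 and FDH, formate dehydrogenase, at 0.55 ± 0.20, both uncalled. Among 9 genes for sugars and starch, PWD, a kinase that opens starch for breakdown by phosphorylating it, was called at -1.03 ± 0.46 and TMT1, a sugar carrier of the vacuole membrane, at 0.69 ± 0.24.

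Protein folding gave 3 positive and no negative calls among 17 genes (17.6%), 2 of them for chaperones of the endoplasmic reticulum, where secreted proteins fold. ATERDJ3B, a co-chaperone of the BiP proteins there, read 0.93, 2.87, 1.21 and 1.92 (mean 1.73 ± 0.86), highest on arrays 2 and 4. The BiP gene BIP1 read 1.53, 0.97, 1.37 and 1.2 (mean 1.27 ± 0.24), and the Hsp70 gene Hsp70-2, whose product acts in the cytosol, read 1.40, 1.18, 1.21 and 1.15 (mean 1.23 ± 0.11). The 3 calls held in the fit with arrays 1 and 3 against 2 and 4 and without array 1, 2 or 3. Without array 4 only 2 did.

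BZIP60, a transcription factor that is activated by misfolded protein in the endoplasmic reticulum, was called on the same side at 0.73, 0.88, 0.96 and 0.83 (mean 0.85 ± 0.09). BZIP60 was named by the rule for the transcription factor class, but was set beside BIP1 after its value was seen. Further reticulum proteins had positive means without a call, namely calreticulin CRT1b at 0.76 ± 0.58 and the disulphide isomerase PDIL5-1 at 0.64 ± 0.37, while the Derlin-family genes DER2.1 at -0.36 ± 0.26 and DER2.2 at -0.12 ± 1.06 had negative means without a call. ATERDJ2B, a J protein of the import pore, ranged from -1.76 to 2.24 and gave no side.

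In the ubiquitin system, 2 of 25 genes were called positive and 1 negative (12.0%). UBC32, a ubiquitin-conjugating enzyme of the reticulum membrane that acts in the removal of misfolded proteins, read -1.19, -1.34, -1.33 and -1.38, a mean of -1.31 ± 0.08 (limma adjusted p = 0.00909). Its call was thus on the other side from BIP1, ATERDJ3B and BZIP60. RING1, a RING-finger ligase gene, was at 1.24 ± 0.83 and UBC30 at 1.06 ± 0.59. The values of UBC30 were higher on arrays 1 and 2 than on arrays 3 and 4, and those of RING1 higher on arrays 2 and 4 than on arrays 1 and 3.

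The class of antioxidant enzymes and peroxidases had calls on both sides, 5 positive and 3 negative among 17 genes (47.1%). Peroxidase genes without a symbol or worded name were not classed, so this share need not hold for all measured peroxidases. Positive calls went to ATMDAR2, a monodehydroascorbate reductase that recycles ascorbate, at 1.81, 0.96, 1.46 and 0.60 (mean 1.21 ± 0.53) and GR1, a glutathione reductase, at 1.08, 0.74, 1.17 and 1.13 (mean 1.03 ± 0.20). They also went to MSRB9 at 1.14 ± 0.42 and MSRB5 at 0.72 ± 0.33, both methionine sulphoxide reductases that repair oxidised proteins, and to peroxidase 71 (AT5G64120) at 1.12 ± 0.44. A further reductase of that kind, MSRB4, had a mean of -0.67 ± 0.57 and no call, so these repair enzymes did not all lie on one side.

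Negative calls in the same class went to TAPX, the thylakoid ascorbate peroxidase, which read -1.11, -0.92, -1.14 and -0.78 (mean -0.99 ± 0.17, 3 ESTs). GME, an epimerase in the synthesis of ascorbate, was at -0.67 ± 0.27, and peroxidase 72 (AT5G66390), a secreted enzyme known for lignin formation, at -1.53, -1.51, -0.95 and -1.03 (mean -1.25 ± 0.31). The 2 glutathione reductases pointed opposite ways: GR1 was called positive, while the organellar GR was at -0.70 ± 0.42 (limma adjusted p = 0.0622). SAPX, the stromal ascorbate peroxidase, was at 0.15 ± 0.18. The 8 calls were 1, 4, 3 and 3 without array 1, 2, 3 or 4, so array 1 weighed most here.

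**Figure D4:**
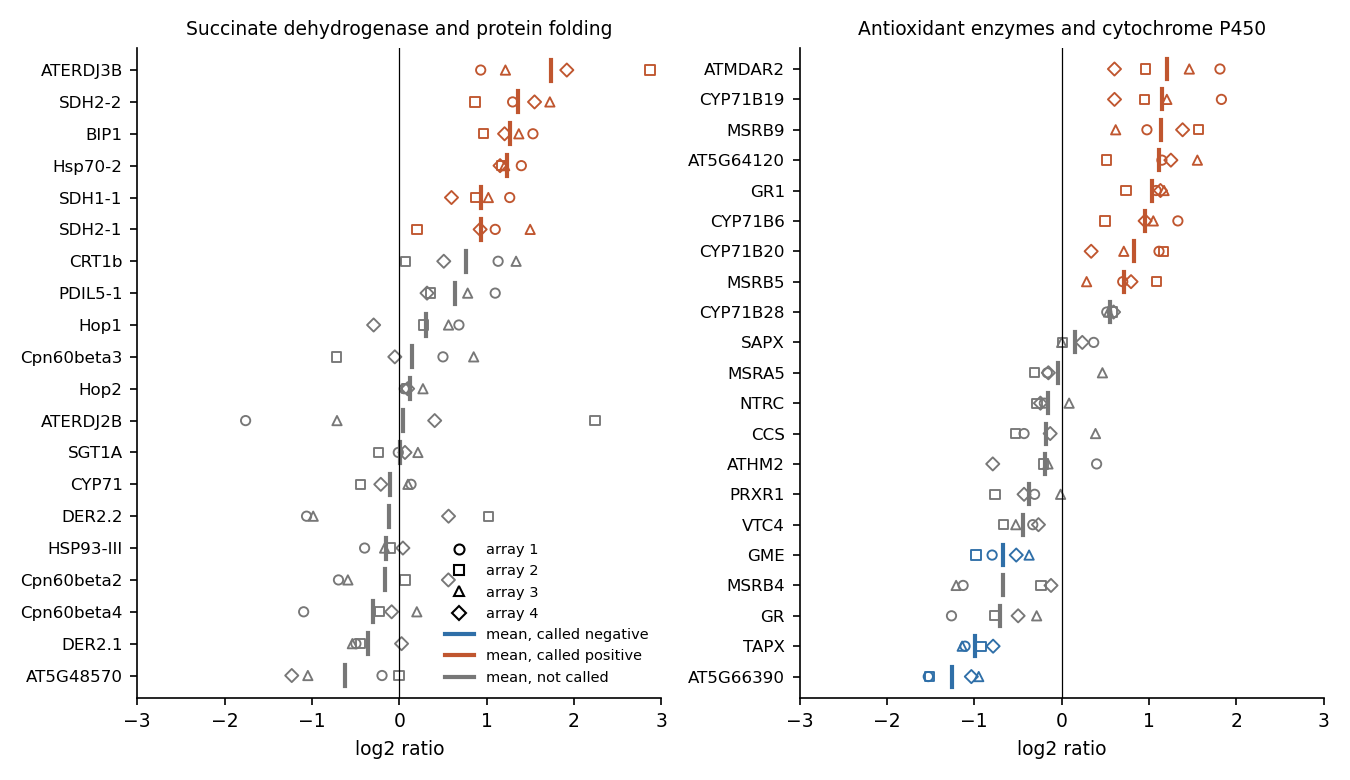
Log2 ratios (x axis) on arrays 1 to 4 (open symbols) with their mean (bar) for succinate dehydrogenase and all 17 protein folding genes (left) and for all 17 antioxidant and 4 cytochrome P450 genes (right). Succinate dehydrogenase subunits, BIP1, ATERDJ3B and Hsp70-2 have means from 0.93 to 1.73, TAPX and AT5G66390 means of -0.99 and -1.25.

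Among genes classed as enzymes that modify small molecules, calls were positive with 1 exception, although not all families leaned that way. Genes without a symbol or worded name were not classed, so called members of these families may be missing. Over glycosyltransferases of the UGT family, glutathione transferases, cytochrome P450 enzymes and aldehyde-detoxifying enzymes together, 8 of 41 genes were called positive (19.5%, against 8.05% of all genes) and 1 negative, with a median of 0.24. Means above 0 were seen for 4 of 4 P450 and 7 of 8 glutathione transferase genes, but only for 10 of 19 UGT and 5 of 10 aldehyde-detoxifying genes. GT72B1 (UGT72B1), which attaches glucose to chlorinated phenols and anilines, read 3.29, 2.33, 1.85 and 1.19 (mean 2.17 ± 0.89, 4.49-fold), highest on array 1 and lowest on array 4. UGT72E2, which glucosylates lignin precursors, was at 0.93 ± 0.31, and UGT76B1, which glucosylates salicylic acid and isoleucic acid, at 0.91 ± 0.29. The negative call was IAGLU, an auxin glucosyltransferase, at -0.68, -1.24, -0.85 and -1.72 (mean -1.12 ± 0.46).

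All 4 classed cytochrome P450 genes belong to the CYP71B subfamily, and 3 were called positive. CYP71B19 read 1.83, 0.94, 1.2 and 0.60 (mean 1.15 ± 0.52). CYP71B20 was at 0.83 ± 0.39 and CYP71B6 at 0.96 ± 0.35. CYP71B28 was the steadiest, at 0.52, 0.59, 0.54 and 0.59, but its small mean missed the threshold (limma adjusted p = 0.0526). CYP71B19 and CYP71B20 are next to each other on chromosome 3 and alike, so an EST of one may read transcript of the other, and the 2 calls may not be separate. The glutathione transferase GSTU27 was called at 1.16 ± 0.43, and the alkenal reductase AER, which removes reactive carbonyls from oxidised lipids, at 1.12 ± 0.36. None of the P450 calls remained without array 1 or without array 3.

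Genes classed under defence or signalling were called one at a time, with 1 of 6 defence genes called (16.7%). Called genes without a symbol or worded name were not classed, and defence genes among these would not be counted. OSM34, an osmotin-like protein of the pathogenesis-related type, read 1.61, 1.30, 2.14 and 1.94 (mean 1.75 ± 0.37) over 3 ESTs that ranged from -0.08 to 2.66. WRKY6, a transcription factor of senescence and defence, was at 1.16, 0.49, 1.44 and 1.27 (mean 1.09 ± 0.42). FER (FERONIA), a receptor kinase for RALF peptides at the cell surface, read 2.03, 1.75, 0.60 and 0.68 (mean 1.26 ± 0.73), with arrays 1 and 2 well above arrays 3 and 4. AKINBETA1, a regulatory subunit of the energy-sensing kinase SnRK1, was on the negative side at -0.81, -0.75, -1.0 and -0.76 (mean -0.83 ± 0.12, 4 ESTs). These 2 were the only calls among 22 kinase, phosphatase and receptor genes (9.09%). AME3, the LAMMER kinase measured here, was at 0.25 ± 0.28 and was not called.

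Among 34 transcription factors, 3 were positive and 1 negative (11.8%), a share near the 13.1% of all genes. All 3 bZIP calls rested on 1 or 2 ESTs: bZIP58 at 1.17 ± 0.49 and BZIP60 on the positive side, and BZIP61 at -1.1 ± 0.49 on the negative side. No call was made in limma among 6 iron-homeostasis bHLH factors and 7 genes of the transcription machinery, of which 0 and 3 had an unadjusted p under 0.05. Nearest to the threshold were bHLH104 at 0.43 ± 0.43 (adjusted p = 0.201) and the Mediator subunit MED22B at -0.89 ± 0.68 (adjusted p = 0.0711).

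RNA processing, the function closest to a LAMMER kinase, gave 2 negative calls and no positive call among 22 genes (9.09%), with a median of -0.03. VCR, a homologue of the decapping scaffold VCS, read -1.69, -0.91, -2.12 and -1.1 (mean -1.45 ± 0.56), lower on arrays 1 and 3 than on arrays 2 and 4. VCS itself was at 0.07 ± 0.11. TRZ1, which cuts the 3' end of transfer RNA precursors, was at -1.27 ± 0.45. The other 20 genes lay between -0.80 and 0.52.

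In translation, 2 of 9 genes were called, both positive: ILA, related to the GCN1 regulator of translation, at 1.30, 1.98, 0.88 and 1.90 (mean 1.52 ± 0.52), and the ribosomal protein gene PGY2 at 0.75 ± 0.16. PGY1, which encodes another protein of the large ribosomal subunit, was at 0.52 ± 0.09 without a call.

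Cell wall genes were called on both sides, 2 positive and 4 negative among 32 (18.8%). Pectin methylesterases remove methyl groups from pectin and so change how it is cross-linked. One of them, PMEPCRF, was positive at 1.40, 1.14, 1.15 and 1.19 (mean 1.22 ± 0.12), and another, ATPMEPCRD, negative at -1.66, -0.79, -1.21 and -0.45 (mean -1.03 ± 0.52). Cellulose synthase-like genes split too, with CSLD2, which acts in root hair growth, at 1.13 ± 0.39 and CSLA03, of the glucomannan synthase group, at -1.01 ± 0.37. TBL28, of the family that acetylates wall polysaccharides, was at -0.97 ± 0.47, and the expansin EXPA9, of the proteins that loosen walls, at -0.89 ± 0.49. Only 1 or 2 of these 6 calls remained when an array was left out, PMEPCRF among them each time.

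In nitrogen, sulphur and amino acid metabolism 2 of 23 genes were positive and 1 negative (13.0%). MCCB, a subunit of the carboxylase that breaks down leucine in mitochondria, was at -1.33, -0.93, -0.99 and -0.58 (mean -0.96 ± 0.31), while MCCA, the other subunit, was at -0.20 ± 0.32. GAT1_2.1, a glutamine amidotransferase, was at 0.75 ± 0.22 and OTC, ornithine carbamoyltransferase of arginine synthesis, at 0.66 ± 0.22. Among 22 transport genes, the nitrate transporter family member NPF6.4 (AT3G21670) was called at 0.94 ± 0.35, beside TMT1.

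Calls among genes of trafficking, cytoskeleton and chromatin were single genes on either side. RAB6A, a small GTPase of the Golgi, was the only call among 30 vesicle genes (3.33%), at 1.30, 2.59, 0.52 and 1.31 (mean 1.43 ± 0.86), with array 2 highest. Of 23 cytoskeleton genes 1 was called positive and 2 negative (13.0%, against 13.1% of all genes). NET1C, an actin-binding protein, was at 0.90 ± 0.25, while the tubulin gene TUB6 was at -0.84 ± 0.26 and the actin-bundling protein WLIM2a at -0.75 ± 0.23. CHC1, a subunit of SWI/SNF chromatin remodelling complexes also known as BAF60, was the only call among 12 chromatin, replication and cell cycle genes (8.33%) and read -0.81, -1.36, -1.03 and -0.86 (mean -1.01 ± 0.25). Of 11 histone genes 1 was called (9.09%), the histone H3.1 gene AT5G10390 at 0.79 ± 0.37, and its call was lost with any array left out. Means above 0 were seen for 8 of the 11, and their median was 0.46, against 0.04 over all genes. Near-identical members of the tubulin, histone and ubiquitin-conjugating families may share signal on an EST, so values of single members are uncertain.

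Of 9 hormone genes 1 was called positive and 1 negative (22.2%, against 13.1% of all genes). They were ARL, a growth regulator of the ARGOS family, at 0.78 ± 0.39, and IAGLU, described above. Of 12 cold, drought and abscisic acid genes 1 was positive and 1 negative (16.7%). These were FLDH, a farnesol dehydrogenase of abscisic acid signalling, at 0.81 ± 0.22 and HVA22C at -0.71 ± 0.23. The carboxypeptidase SCPL49, at -1.13 ± 0.34, was the only call among 22 proteases and inhibitors (4.55%). ATG101 (AT5G66930), a subunit of the kinase that starts autophagy, was the only call of 8 autophagy genes (12.5%), at 0.67 ± 0.27. No gene was called among 12 for lipids, 9 for calcium signalling, 4 tetraspanins and 5 pollen and floral genes, where limma's smallest adjusted p-values were 0.0778 (PMEAMT), 0.08 (CRT1b), 0.195 (TET7) and 0.0653 (AGL18). At an unadjusted p under 0.05, 1 of the lipid genes, 3 of the calcium genes, 0 of the tetraspanins and 1 of the pollen and floral genes passed.

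A few called genes with a symbol fell outside the classes. Soluble epoxide hydrolase (SEH), which opens epoxides of fatty acids, was at 1.05, 0.52, 0.89 and 0.76 (mean 0.80 ± 0.23, 3 ESTs). GILT, related to a lysosomal thiol reductase of animals, was at 0.88 ± 0.22, and FHIT, of a nucleotide hydrolase family, at 0.63 ± 0.17. Of the TON1-recruiting motif proteins, whose partner TON1 organises cortical microtubules, TRM28 was at 0.93 ± 0.21 and TRM21 at 0.65 ± 0.21. On the negative side lay CP5 at -0.77 ± 0.33 over 6 ESTs, LigB at -0.80 ± 0.20, 2A6 at -0.69 ± 0.27 and DRT100, named for tolerance of DNA damage, at -0.68 ± 0.18 over 3 ESTs. Those 9 genes departed less than 2-fold, and 7 of them lost the call in each fit without 1 array.

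Markers of seed and root were read because whole plants were compared. All 5 genes of seed reserves and late embryogenesis had means above 0, with a median of 1.01, and 2 were called (40.0%). PAP85, a vicilin-like storage protein, read 0.73, 1.23, 4.70 and 4.85 (mean 2.88 ± 2.2, limma adjusted p = 0.0485), and lost its call with any array left out. ICL, counted here too, had the same profile, with arrays 3 and 4 high. LEA4-5, a late embryogenesis protein, was even across arrays at 1.0, 0.82, 1.13 and 1.1 (mean 1.01 ± 0.14). Of 6 genes of the root list 1 was called, the beta-glucosidase BGLU21 of root ER bodies at -0.62, -0.44, -0.83 and -0.72 (mean -0.65 ± 0.16). Its relative PYK10, a main root ER body protein read by 10 ESTs, was at -0.25 ± 0.13. The part of seed or root content in the photosynthesis values was not tested. The arrays of lowest value differed between the photosynthesis genes. They were arrays 1 and 2 for RCA and PRK, and arrays 3 and 4 for PSAN and NdhU. For LHB1B2, LHCB4.1 and PSB27 they were arrays 2 and 4, while LHCB4.2 was even across arrays.

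Genes read by several ESTs show how far the ESTs of one gene agree, although each call rests on the mean of those same ESTs. Of 342 genes with 3 or more ESTs, 17 were called positive and 30 negative (13.7%), whereas genes on 1 EST gave 216 positive and 111 negative calls of 2487 (13.1%). Negative calls made up 8.77% of the genes with 3 or more ESTs and 4.46% of those with 1, and positive calls 4.97% and 8.69%. Among the called genes with 3 or more ESTs, 36 had EST means of one sign, 22 negative and 14 positive. Of all 342 genes with 3 or more ESTs, called or not, 133 had EST means of one sign. RCA ranged over -2.27 to -1.56 in its 5 ESTs, PRK over -2.03 to -0.95 in 7 and LHCB4.1 over -1.14 to -0.33 in 7. Other called genes had ESTs on both sides: LHCB4.2 (-1.95 to 0.35), LHB1B2 (-1.95 to 1.34), MSRB9 (-0.30 to 2.01), OSM34 (-0.08 to 2.66) and CP5 (-1.14 to 0.51). The highest EST of ATPC1 and of AT1G74470 lay just above 0, at 0.04 and 0.02.

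Several of these calls belong to genes known here by locus code alone. AT5G24490 was at -1.42 ± 0.53 with ESTs from -1.63 to -1.18, and AT3G15450 at -1.36 ± 0.57 with ESTs from -1.60 to -1.05. On the positive side AT4G37520 was at 1.73 ± 0.36, AT2G27730 at 1.31 ± 0.48 and AT4G15000 at 1.06 ± 0.42, whose 3 ESTs lay from 1.01 to 1.09. These 5 genes were listed because their 3 or 4 ESTs share one sign.

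**Figure D5:**
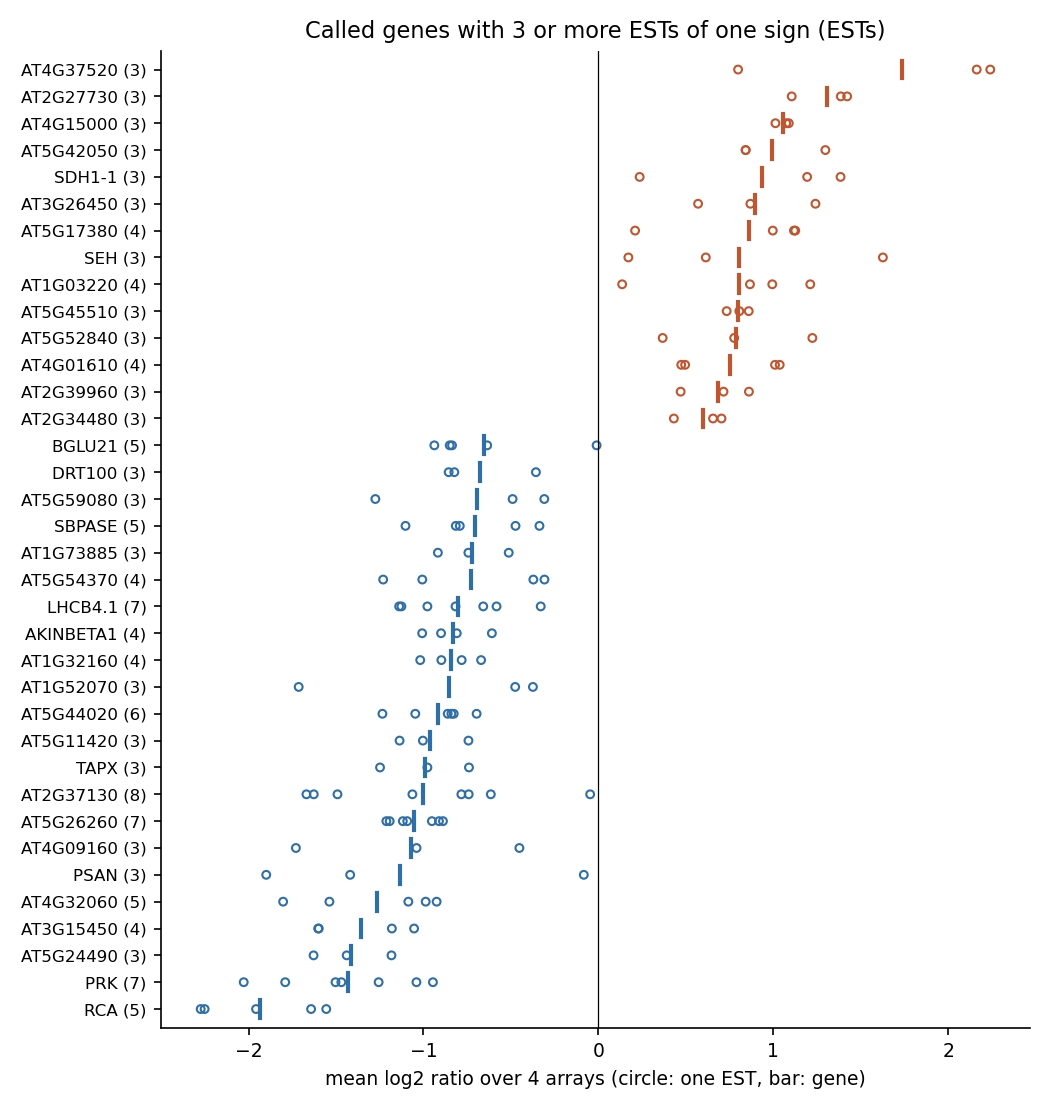
Mean log2 ratio over the 4 arrays (x axis) of each EST (circles) and of the gene (bar) for the 36 called genes with 3 or more ESTs that share one sign, with the number of ESTs in parentheses. The 22 negative genes include RCA, PRK, PSAN, TAPX, LHCB4.1 and SBPASE, and the 14 positive genes include SDH1-1.

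The 10 smallest adjusted p-values in limma all lay on the positive side. They run from 0.00205 to 0.004 and belong, besides RAP, to genes known here by locus code, among them AT2G38870, AT1G03106 and AT2G18690. AT1G03106 was even across arrays, at 1.86, 1.81, 1.90 and 2.05, but its 2 ESTs lay far apart, their means being -0.33 and 4.14. AT2G18690, also on 2 ESTs, read 1.96, 1.90, 2.65 and 2.35. AT2G38870 read 3.59, 3.41, 2.88 and 2.42 and is next to YLS5, which was called too, at 1.99, 1.07, 1.86 and 1.1. Of 530 pairs of neighbouring genes that were both measured, 9 had both called, 7 of them on the same side. Whether this exceeds what the 13.1% of all genes called would give was not tested. AT1G76960 had the highest mean of all genes, 11.8-fold, but ranged from 1.57 on array 3 to 5.65 on array 2. AT5G42530 likewise ranged from 1.56 on array 4 to 4.45 on array 1.

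At 21 days 2913 genes were measured, and no gene was called there in limma, while 266 had an unadjusted p under 0.05. Of the 459 genes called at 10 days, 357 were measured at 21 days, and 202 of them had the same sign. The difference between ages was called for 101 of 2913 genes (3.47%), 88 of them among those 357. Since the 357 were chosen for their size at 10 days, a smaller value at 21 days is no independent finding, and age and array type cannot be told apart. RCA was at -0.11 ± 0.32 at 21 days (difference -1.82, limma adjusted p = 0.0152) and PRK at 0.05 ± 0.37 (difference -1.49, limma adjusted p = 0.0261). SBPASE at -0.46 ± 0.19, HPR at -0.53 ± 0.37 and CHC1 at -0.71 ± 0.15 lay on the same side as at 10 days and had no called difference.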

How the data were processed

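Two-colour hybridisations of total RNA from non-transformed (channel 1) and PK12 (channel 2) plants of 10 days were read on 4 arrays, and 4 arrays of 21 days served for the comparison of ages. The authors deposited a log10 ratio of the channels per EST: 10 raised to a deposited value gives a ratio with few decimals, and column medians lay at or near 0. For the dyes, numerator, scanner, background correction and normalization, nothing is given in the sources used. The log10 ratios were converted to log2, centred per array on the median and averaged over the ESTs of a gene, with genes taken from the platform annotation and named through the RefSeq gene table of TAIR10.1 (5209 of 5216 ESTs with 1 annotated gene matched). EST clones of near-identical genes can hybridise with each other's transcripts. Genes were tested against 0 with limma 3.58.1 in R 4.3.3 (intercept, eBayes, two-sided, Benjamini-Hochberg over all genes), and ± gives the SD over 4 arrays. The fit was run once on simulated noise with some genes moved. It called 89% of genes moved by 1 in log2, and 17 of its 205 calls were false. That noise was independent between arrays, so the correlation between real arrays was not simulated. Ages were compared as the difference of 2 group means over all 8 arrays. Alternatives were no centring, scale and quantile normalization, robust eBayes, a test against 1.2-fold, the 3 pairings of arrays as random block or averaged, leaving out each array, subtracting a running median over 36 ESTs on either side, a rule of 1.5-fold on every array, the median over ESTs, and genes with 1 or with several ESTs.

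The genes, classes and lists were chosen with earlier results of these data known. Classes were assigned by symbol or worded name, and completed after values had been seen: 22 genes with a worded synonym were added and CHC1 was moved to chromatin. The text names, per class, the 3 called genes furthest from 0 on each side or, without a call, the gene of smallest adjusted p, and then genes among the 25 most extreme on each side, called genes with 3 or more ESTs of one sign, and the 10 smallest adjusted p-values. Further members of a named complex or family, and called genes outside the classes, were named after their values were seen. A search for promoter motifs was planned and not run, since no sequences were used here.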

Additional observations from a re-analysis of the deposited data

Results flagged for a closer look

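Of the 134 genes named in the report, not all of them measured at 21 days, 25 differed between the ages in limma's test. The test was of 10 days minus 21 days at an adjusted p under 0.05, and array type changes with age. Over all genes, 101 of 2913 differed (3.47%). Most named genes were chosen for their values at 10 days, which enter this difference, so a higher share among them is no independent finding. On the negative side were photosynthesis and plastid genes: RCA at -1.82, PRK at -1.49, TROL at -1.38, CURT1C (AT1G52220) at -1.01, TAPX at -1.0 and RH39 at -1.50. CURT1C was not called at 10 days by itself. Also negative were UBC32 at -1.40, peroxidase 72 (AT5G66390) at -1.72, VCR at -1.40, MCCB at -1.33 and SCPL49 at -1.32.

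On the positive side the difference was 2.13 for RAP, 2.15 for GT72B1, 1.17 for UGT72E2, 1.35 for CYP71B19, 1.24 for PGY2, 1.03 for PMEPCRF, 1.57 for RAB6A and 1.70 for OSM34. Among genes known by locus code it was 3.85 for AT1G76960, 1.77 for AT4G37520, 1.70 for AT2G18690, 1.90 for AT1G03106, 2.95 for AT2G38870 and 2.23 for AT3G02360.

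A single array stood apart from the other 3, by Dixon's criterion, for 4 of the 134 genes named, fewer than 1 in 20, the rate chance gives. CHL was at -2.12 on array 1, against -0.91, -0.78 and -0.97 on the others. CSLA03 was at -1.56 on array 1, against -0.80, -0.81 and -0.85. HVA22C was at -0.36 on array 4, nearer 0 than its other values, and AT4G37520 was at 2.28 on array 4, above its others. CHL, CSLA03 and HVA22C lost their call with any single array left out, while AT4G37520 kept it.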

How the results depend on the processing

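No paired analysis was possible because the 4 ratios, each already a comparison of both kinds of plant on 1 array, form 1 group, and the replicate numbers only name the arrays. The pairings of arrays below stand for the 2 experiments that the labels do not assign. The 459 called genes (283 positive, 176 negative) and 2031 called ESTs stayed within 1.5 times under no centring, scale or quantile normalization and robust eBayes, as did the genes under the median over ESTs. A test against 1.2-fold left 185 genes (127 positive, 58 negative) and 996 ESTs. The rule of 1.5-fold on every array took 246 genes (152 and 94) and 1109 ESTs. With a random block for arrays 1 and 3 and for arrays 2 and 4, 263 genes (161 and 102) and 1171 ESTs were called. With arrays 1 and 4 against 2 and 3 as a block the numbers were 2021 genes (1109 and 912) and 7538 ESTs, and with these pairs averaged 1533 genes (867 and 666) and 6499 ESTs. That pairing sets arrays of opposite deviation together, the correlation estimated within pairs being -0.80. Subtracting the running median gave 781 genes (479 and 302) and 3086 ESTs, with 443 of the 459 genes kept. Testing genes on 1 EST alone gave 270 calls (174 and 96), and genes on 2 or more ESTs alone 235 (122 and 113). In the fit over all genes, those on 1 EST had 216 positive and 111 negative calls, and the cause of these shifts was not tested. Leaving out 1 array gave 99 to 195 genes (70 to 134 positive, 29 to 66 negative) and 1038 to 1210 ESTs. For the 101 genes that differed between ages, leaving out 1 array of either age gave 40 to 92. All 101 called genes named had one sign on all 4 arrays, so fits that reuse or average those values could not change it. None of the 101 changed sign under the other alternatives either. The largest losses among them came without array 1, where 77 calls were lost, against 62, 60 and 59 without array 2, 3 or 4. The 1.2-fold test lost 55 of them and the block of arrays 1 and 3 against 2 and 4 lost 33. The array number limits all of these, and no signal over background was used here.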
